A study of Rattus norvegicus with 6 samples.

Results

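Immediate early genes are switched on within minutes of a stimulus without new protein synthesis. The 10 considered here (Fos, Fosb, Jun, Junb, Egr1, Egr3, Nr4a1, Arc, Ier2 and Btg2) were matched by symbol, and all 10 were found among the 32883 genes of the deposited table. They and the lists of related genes were chosen with earlier results of these data known. None of the 10 passed the test for a change in the vestibular epithelium of rats exposed to streptomycin. Of the 9 that could be tested, 0 were called higher and 0 lower, and their median log2 fold change was 0.05, against 0.0069 over all 16250 genes tested. Among other immediate early genes, 5 of the 35 tested (Ier5, Atf3, Plk3, Klf2 and Jund) rose, by 1.56 to 3.24 on the log2 scale, where 1.87% of all tested genes were called higher. With edgeR 2 of the 5 were called, Ier5 and Atf3.

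The libraries came from the vestibular sensory epithelium, in which hair cells (HCs) sense head movement and gravity, of Long-Evans rats. The 3 STREP rats were given the aminoglycoside antibiotic streptomycin subcutaneously at 500 mg/kg (as the free base, in PBS) every day over 6 weeks, beginning on postnatal day 21, and the 3 Control rats were given PBS alone. Replicates 1 and 2 of each group were males and replicate 3 was a female. The 2 utricles and 6 cristae of each animal were pooled on the last day of exposure, after a quick dissection in ice-cold PBS. Total RNA was reverse transcribed from an oligo-dT primer by a modified SMARTseq2 protocol and sequenced. The comparison asks whether these transcripts differed after the exposure, in tissue taken at a single time point. Library totals ran from 48568191 to 59906048 counts in Control and from 29333584 to 33744909 in STREP animals, so every STREP library was the shallower. The counts of all 6 were deposited in 1 table, which does not show that the libraries were prepared in 1 batch. The titles of STREP replicates 1 and 2 share a code whose meaning the labels do not give. In bulk tissue, fewer cells of a type and less RNA per cell cannot be told apart.

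Immediate early genes are induced by growth factors, membrane depolarisation, calcium entry and many kinds of stress. Growth factor-activated and calcium-dependent kinases act on transcription factors already present on the promoter, among them serum response factor (at the CArG box) and CREB (at the cAMP response element, CRE). The transcripts are short-lived and many of the encoded proteins are themselves transcription factors, which is why they serve as markers of recent neuronal activity and also respond to the handling of tissue.

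The 250 bases upstream of the transcription start were taken from RefSeq (build GRCr8, whereas the counts were made on Rnor6.0) for 6 of the 10 members, namely Fosb, Junb, Egr1, Nr4a1, Ier2 and Btg2. The motifs searched were the CRE, TGACGTCA, on either strand, and the TATA box, TATAAA, on the strand of the gene. In 27457 promoters of that length, 1.7% held the CRE and 8.38% the TATA box. Junb and Jund, and Ier2 and Ier5, are printed as relatives of which the first was not called and the second rose, and Btg2 as the other member with a whole CRE. They lie at chr19:40080876-40081125 (plus strand), chr16:18769772-18770021 (minus strand), chr19:40399123-40399372 (plus strand), chr13:69822543-69822792 (minus strand) and chr13:48087691-48087940 (minus strand), and are written 5′ to 3′ on the strand of the gene, ending at the base before the start, with the CRE or TATA box in capitals.
Junb: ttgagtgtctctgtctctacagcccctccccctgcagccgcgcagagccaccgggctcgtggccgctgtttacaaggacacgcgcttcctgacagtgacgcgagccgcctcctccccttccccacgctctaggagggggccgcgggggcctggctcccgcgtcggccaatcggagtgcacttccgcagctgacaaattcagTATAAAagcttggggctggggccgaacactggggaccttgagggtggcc
Jund: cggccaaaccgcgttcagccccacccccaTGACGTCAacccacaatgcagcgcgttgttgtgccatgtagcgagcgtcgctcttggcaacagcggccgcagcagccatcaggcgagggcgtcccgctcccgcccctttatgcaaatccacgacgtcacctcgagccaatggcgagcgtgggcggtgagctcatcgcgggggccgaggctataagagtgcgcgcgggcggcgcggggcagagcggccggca
Ier2: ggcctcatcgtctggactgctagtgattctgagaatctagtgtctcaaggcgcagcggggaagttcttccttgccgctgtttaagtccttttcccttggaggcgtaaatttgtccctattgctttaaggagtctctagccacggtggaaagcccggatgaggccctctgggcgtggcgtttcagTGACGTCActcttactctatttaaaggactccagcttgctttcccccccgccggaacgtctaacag
Ier5: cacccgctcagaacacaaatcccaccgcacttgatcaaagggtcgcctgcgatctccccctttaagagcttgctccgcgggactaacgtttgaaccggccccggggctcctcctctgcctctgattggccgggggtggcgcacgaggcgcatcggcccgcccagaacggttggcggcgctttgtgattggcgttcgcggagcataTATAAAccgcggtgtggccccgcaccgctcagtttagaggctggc
Btg2: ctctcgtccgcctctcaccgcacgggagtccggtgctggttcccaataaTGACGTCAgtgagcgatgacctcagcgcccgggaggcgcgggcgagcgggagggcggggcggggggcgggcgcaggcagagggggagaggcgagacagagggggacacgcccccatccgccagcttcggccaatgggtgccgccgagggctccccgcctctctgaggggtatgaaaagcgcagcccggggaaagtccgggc

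The CRE began 66 bases before the start in Ier2, 201 bases before it in Btg2 and 221 bases before it in Jund. A TATA box began at 49 bases before the start in Junb and at 45 in Ier5. The CArG box, held by 1.5% of all promoters, was found in Egr1 alone among the promoters of the members and the called relatives that the table held, at 105 and 83 bases before the start. Shorter motifs, searched on either strand, were more common. The CRE core TGACG, which is part of every CRE, was held by 19.0% of all promoters and the GC box GGGCGG by 32.4%, and Nr4a1 had 4 of the first and 3 of the second. The AP-1 site, TGANTCA, was held by 6.36% of all promoters and had no match among those of the members and the called relatives. The CRE was held both by members that were not called (Ier2 and Btg2) and by a relative that was called higher (Jund). A match is a description of the letters and does not show that a factor binds there.

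Values below are normalised counts, which are counts divided by the size factor of each library, and are given for the 3 Control animals and then the 3 STREP animals in the order of their replicate numbers. Log2 fold changes are STREP over Control from DESeq2, with their standard error (SE) and 95% interval (1.96 SE either side). Calls required both an adjusted p (Benjamini-Hochberg, over the whole table) under 0.05 and a change of more than 1.5-fold. By that rule 1.87% of the tested genes were called higher and 1.37% lower. Transcript lengths were not used, so levels are compared between groups and never between genes.

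**Figure D1:**
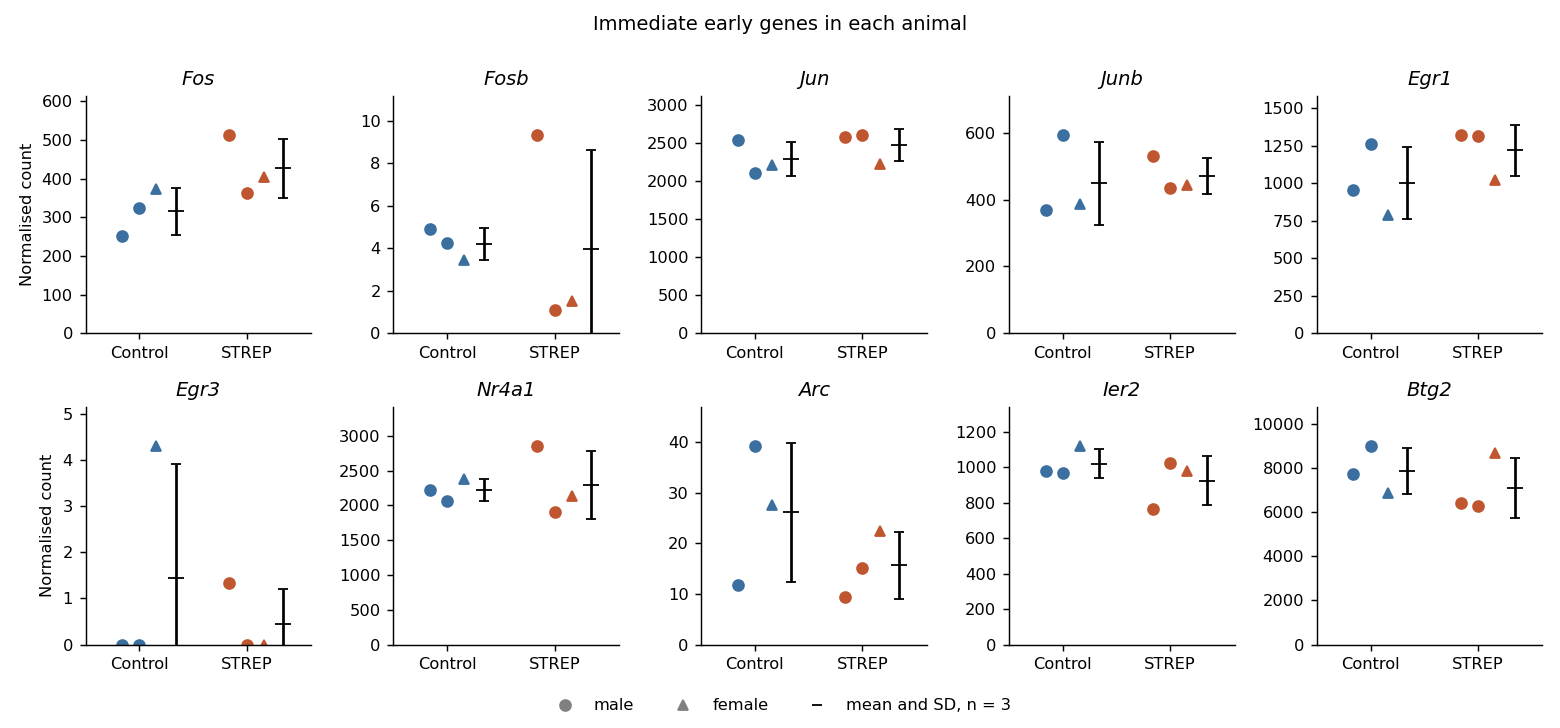
Normalised count of each of the 10 immediate early genes (1 panel per gene, vertical axes starting at 0) in each Control (blue) and STREP (orange) animal, with circles for males, triangles for the females, and the mean with its SD beside the points (n = 3, the bars of Fosb and Egr3 stopping at 0). The groups overlapped in all 10 panels, and the nearest to a separation was Fos, in which the lowest STREP animal had 364 and the highest Control animal 372.

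The FOS and JUN proteins pair to form AP-1, a dimeric transcription factor that cannot be built by FOS proteins alone. Fos (ENSRNOG00000008015) had 252, 323 and 372 normalised counts in Control and 513, 364 and 405 in STREP animals. STREP replicate 1 was the highest and Control replicate 1 the lowest of the 6, a 2.03-fold span. The means were 316 ± 60.4 and 427 ± 76.7 (SD, n = 3), and the log2 fold change, 0.44 ± 0.25 (SE, 95% interval -0.06 to 0.94), did not pass the test (DESeq2 adjusted p = 0.523). This was the largest positive value among the members, and its interval reached a 1.91-fold increase.

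Jun (ENSRNOG00000026293), which can dimerise with itself as well as with FOS, was the steadiest member. It had 2544, 2115 and 2215 normalised counts in Control and 2587, 2606 and 2232 in STREP animals, a span of 1.23-fold over the 6 animals. The log2 fold change was 0.11 ± 0.15 (DESeq2 SE, adjusted p = 0.893), with a 95% interval in linear terms from 0.883-fold to 1.32-fold.

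Junb (ENSRNOG00000042838), which in many settings is a weaker activator than JUN, had 368, 593 and 387 normalised counts in Control and 531, 435 and 443 in STREP animals. The highest and the lowest animal were both Control, so the spread within that group enclosed all STREP values. Its fold change on the log2 scale was 0.07 ± 0.25 (DESeq2 SE, adjusted p = 0.979).

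Fosb (ENSRNOG00000046667), whose stable truncated product accumulates in neurons after repeated stimulation, was close to the detection floor. It had 8, 5 and 4 raw counts in Control and 7, 1 and 1 in STREP animals, where a floor of 3 counts corresponded to between 0.0501 and 0.102 CPM (counts scaled to the library total). Its log2 fold change of -0.09 ± 1.65 (DESeq2 SE, adjusted p = 0.995) had an interval from -3.33 to 3.15, so neither a rise nor a fall of several-fold could be detected at this depth.

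EGR1 and EGR3 are zinc finger transcription factors that bind GC-rich promoter sites. Egr1 (ENSRNOG00000019422) had 951, 1263 and 790.4 normalised counts in Control and 1319, 1316 and 1023 in STREP animals. The males of the STREP group were the highest 2 of the 6, but the STREP female lay below Control replicate 2. The means were 1002 ± 240.4 and 1219.6 ± 170.1 (SD, n = 3), with a log2 fold change of 0.28 ± 0.22 (DESeq2 SE, adjusted p = 0.703) and an interval up to 1.63-fold. Egr3 (ENSRNOG00000017828) had 5 raw counts in Control replicate 3, 1 in STREP replicate 1 and 0 in the other 4 libraries. It did not pass the independent filtering of DESeq2 and is given no fold change.

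Nr4a1 (ENSRNOG00000007607), an orphan nuclear receptor, had 2227, 2069 and 2375 normalised counts in Control and 2849, 1909.9 and 2138 in STREP animals. Both extremes were STREP males, replicates 1 and 2, and the Control values all lay between them. The means of 2224 ± 153 and 2299 ± 490 gave a log2 fold change of 0.05 ± 0.18 (DESeq2 SE, adjusted p = 0.977).

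Arc (ENSRNOG00000043465) encodes a synaptic protein that regulates the removal of AMPA receptors and is best known from neurons. Its raw counts were 19, 46 and 32 in Control and 7, 14 and 15 in STREP animals, or 11.7, 39.1 and 27.5 against 9.32, 15.1 and 22.4 normalised counts. STREP replicates 2 and 3 were above Control replicate 1, so the groups overlapped. The log2 fold change of -0.74 ± 0.84 (SE, 95% interval -2.38 to 0.91, DESeq2 adjusted p = 0.854) was the largest in size among the members and rested on few counts.

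Ier2 (ENSRNOG00000054344), a nuclear protein of the IER family, is annotated as a pseudogene in the deposited table but as protein coding in RefSeq. It had 978, 967 and 1117 normalised counts in Control and 767, 1026 and 978 in STREP animals. STREP replicate 1 was the lowest, and the others lay within the Control range. Its log2 fold change was -0.14 ± 0.18 (DESeq2 SE, adjusted p = 0.885).

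Btg2 (ENSRNOG00000003300), an antiproliferative cofactor of mRNA deadenylation that is also induced by p53, had 7711, 8974 and 6884 normalised counts in Control and 6389, 6262 and 8666 in STREP animals. Both STREP males were below both Control males, whereas the STREP female was above the Control female. The log2 fold change was -0.15 ± 0.17 (DESeq2 SE, adjusted p = 0.870) in all animals and -0.40 in the males alone (DESeq2 adjusted p = 0.200). The difference between the female and the male fold change, 0.73 ± 0.28 on the log2 scale (SE), did not pass the test either (DESeq2 interaction, adjusted p = 0.528). The interaction had an adjusted p under 0.05 (DESeq2, without the 1.5-fold limit) for 34 genes of the table, none of them a member. It rests on 1 female per group.

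At an unadjusted p under 0.05 there were also 0 members, against 12.2% of all tested genes. With edgeR (quasi-likelihood test on genes filtered by count), which left out Fosb and Egr3, 0 of the other 8 were called. No member separated the groups: 0 had all STREP values above all Control values, as 9.12% of the tested genes did, and 0 had them all below, as 8.63% did. Within each sex, Fos, Jun and Egr1 were higher in STREP animals (both males above both males, and the female above the female), which is 3 of 9 against 12.9% of the tested genes. None was lower within each sex, against 12.4%. In Jun the female pair was close, at 2232 against 2215 normalised counts.

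**Figure D2:**
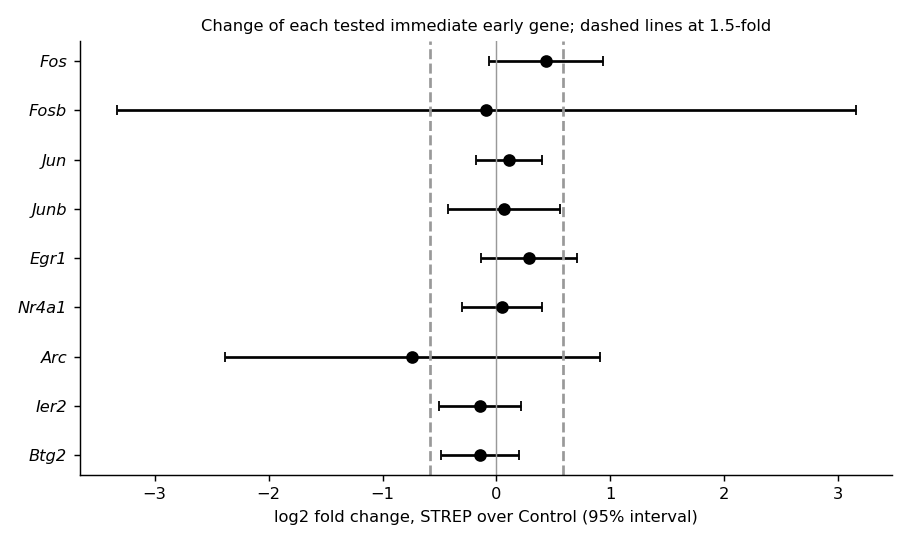
Log2 fold change of STREP over Control (horizontal axis) for the 9 tested immediate early genes (rows), with the 95% interval as bars and dashed lines at a 1.5-fold change either way. All 9 intervals include 0, and those of Jun, Junb, Nr4a1, Ier2 and Btg2 lie between the dashed lines.

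A p that misses its threshold does not show that a gene is unaltered, so the interval was read against the study's own limit of 1.5-fold, a step added after the values had been seen. For Jun, Junb, Nr4a1, Ier2 and Btg2 the whole 95% interval lay inside 1.5-fold either way, which is 5 of 9 members, against 37.5% of all tested genes. The same 5 genes passed a DESeq2 test of a fold change smaller than 1.5, as did 39.2% of all tested genes. Adjusted p in that DESeq2 test was 0.00428 for Jun, 0.037 for Junb, 0.00641 for Nr4a1, 0.0188 for Ier2 and 0.0151 for Btg2. It uses the same estimates and SEs as the intervals, so it is no further evidence. For Fos and Egr1 an increase above 1.5-fold lay within the interval, and for Arc and Fosb changes in both directions did. With 1 animal left out, fewer members were inside: 3 without Control replicate 1, Control replicate 2, STREP replicate 2 or STREP replicate 3, and 4 without either of the others.

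Variation between animals was close to that of other genes. Over the 7 members with a mean of at least 100 normalised counts (all but Fosb, Egr3 and Arc), the median within-group SD was 0.23 on the log2 scale, against 0.22 over 12131 genes above the same level. STREP replicate 1 was the highest of the 6 animals for 3 of the 7 (Fos, Egr1 and Nr4a1) and the lowest for Ier2. The mean of the 7 profiles, each centred on its own mean, ran from -0.12 in Control replicate 1 to 0.13 in STREP replicate 1, a range of 0.25. The genes outside the lists whose profile over the 6 animals was nearest that mean were Zscan21, Tek, Enpp5, Wwp2 and St3gal4, with root mean square differences from 0.0265 to 0.0415 on the log2 scale. The differences of the 7 members from their own mean ran from 0.148 for Jun to 0.252 for Fos. Zscan21 and the genes named with it were picked for being nearest, so their smaller differences follow from that choice. The comparison therefore cannot show whether the members moved together, which was not tested.

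Other immediate early genes were listed as well, 38 in all, of which 37 were in the table and 35 were tested. In this list 5 were called higher (Ier5, Atf3, Plk3, Klf2 and Jund) and 0 lower, and the median log2 fold change was 0.23. There were 11 of 35 at an unadjusted p under 0.05, against 12.2% of all tested genes. STREP values were all above Control values in 9 of 35, against 9.12%, and all below in 3 of 35, against 8.63%. The 30 tested genes that were not called had log2 fold changes from -4.79 to 0.59. The lowest of these, named after its value was seen, was Npas4, a gene induced by neuronal activity, which had 32 raw counts in Control replicate 1 and 0 in the other 5 libraries.

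**Figure D3:**
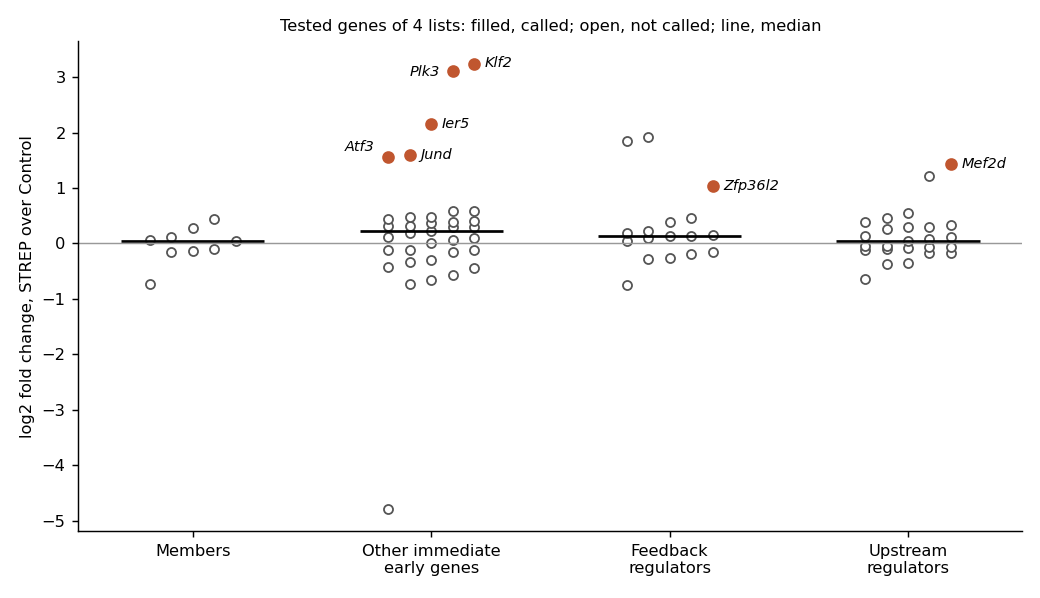
Log2 fold change of STREP over Control (vertical axis) of each tested gene in 4 lists: the 9 members, 35 other immediate early genes, 17 feedback regulators and 25 upstream regulators, with called genes filled and named and a line at each median. The members lie between -0.74 and 0.44 with none filled, whereas 5 genes of the second list are filled, between 1.56 and 3.24.

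Ier5 (ENSRNOG00000059406), a relative of Ier2 that acts on heat shock factor together with a protein phosphatase, was the clearest of the 5. It had 157, 101 and 169 normalised counts in Control and 755, 542 and 607 in STREP animals, with no overlap between groups. The means were 143 ± 36.4 and 635 ± 109 (SD, n = 3), and the log2 fold change was 2.15 ± 0.27 (DESeq2 SE, adjusted p = 7.56e-13). Atf3 (ENSRNOG00000003745), a stress-induced CREB/ATF family member that can pair with JUN proteins, had 110, 80.8 and 94.6 normalised counts in Control and 355, 219 and 271 in STREP animals. Each STREP animal was above every Control animal, and the fold change was called (DESeq2 adjusted p = 8.11e-05, 95% interval 1.92-fold to 4.53-fold).

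Jund (ENSRNOG00000019568), the JUN protein with the most constitutive expression, had 44.8, 42.5 and 20.6 normalised counts in Control and 105, 83.1 and 139 in STREP animals. Every STREP animal was above every Control animal, although raw counts ran only from 24 to 93. The log2 fold change was 1.59 ± 0.49 (DESeq2 SE, adjusted p = 0.0343). Jund was no longer called with edgeR (adjusted p = 0.170 with a count filter), with library totals as size factors (1.52), in the males alone (1.11), or without Control replicate 2, Control replicate 3, STREP replicate 1 or STREP replicate 3 (log2 fold changes of 1.72, 1.32, 1.62 and 1.38).

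Plk3 (ENSRNOG00000018484), a stress-responsive polo-like kinase, had 66, 10 and 3 raw counts in Control and 115, 161 and 85 in the shallower STREP libraries. Control replicate 1 stood above the other Control animals, with 40.5 normalised counts against 8.50 and 2.58. The STREP animals had 153, 174 and 127 normalised counts, and the log2 fold change was 3.12 ± 0.72 (DESeq2 SE, adjusted p = 0.00103). Klf2 (ENSRNOG00000014205), a zinc finger factor best known as flow-responsive in endothelium, had 23, 3 and 2 raw counts in Control and 49, 53 and 38 in STREP animals. The same Control animal was again the highest, with 14.1 normalised counts against 2.55 and 1.72, and the STREP animals had 65.2, 57.2 and 56.8. Its log2 fold change was 3.24 ± 0.83 (DESeq2 SE, adjusted p = 0.00488). Without Control replicate 1 the log2 fold changes were 4.77 for Plk3 and 4.80 for Klf2. The call of Klf2 was lost without STREP replicate 1 (3.19) or STREP replicate 3 (3.29) and in the males alone (2.85, DESeq2 adjusted p = 0.174), and neither gene was called by edgeR with a count filter (adjusted p = 0.0859 for Plk3 and 0.105 for Klf2).

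**Figure D4:**
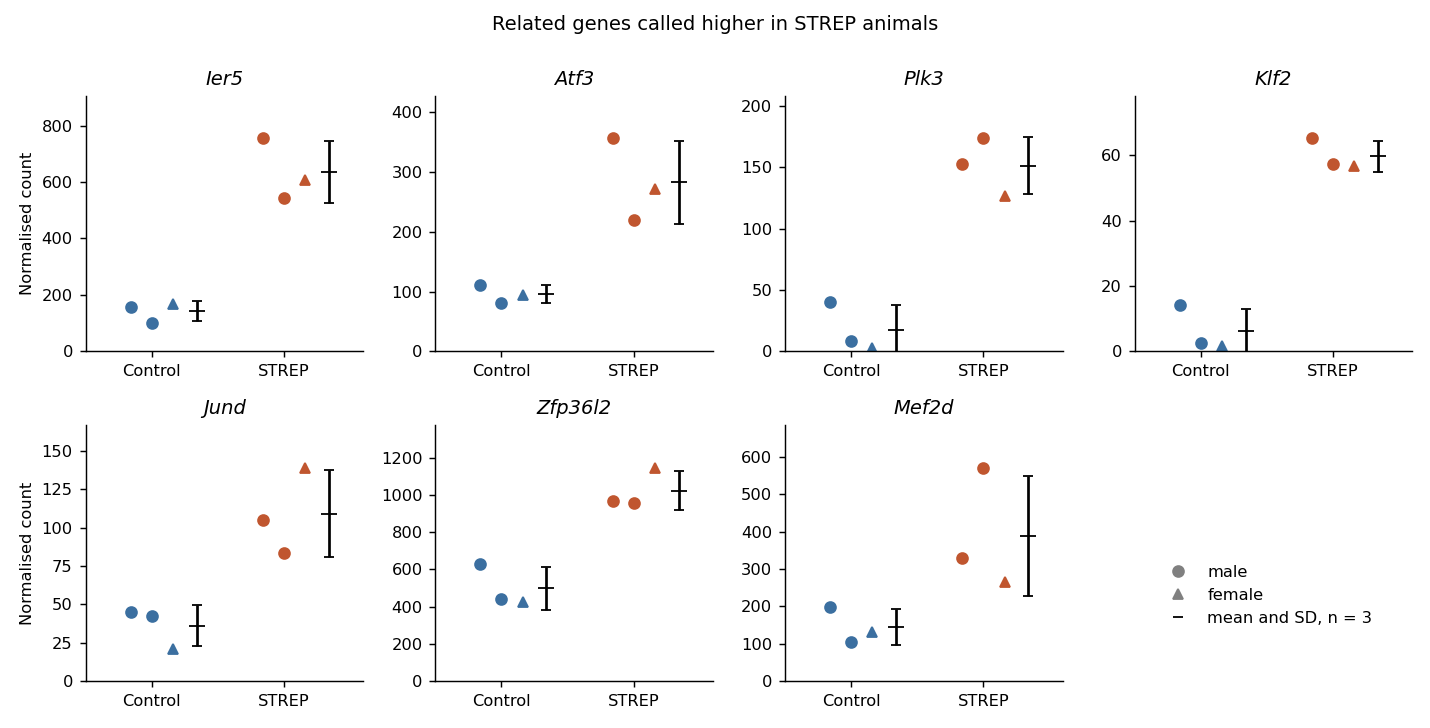
Normalised count (vertical axes starting at 0) of the 7 related genes called higher in STREP animals, in each Control (blue) and STREP (orange) animal, with circles for males, triangles for the females and the mean with its SD (n = 3) beside the points. In all 7 panels every STREP animal lies above every Control animal, with the smallest log2 fold change in Zfp36l2 (1.04) and the largest in Klf2 (3.24).

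The list of 5 therefore depended on the test: edgeR with a count filter called Ier5 and Atf3 alone, and leaving out STREP replicate 1 or STREP replicate 3 left 3 genes called. In each of the 5 every STREP animal was above every Control animal, so a higher value within each sex follows and is no further evidence. Relatives that were called and members that were not can be set against each other within an animal, as the log2 ratio of their normalised counts plus 1. These pairs were picked after the values had been seen, so the ratios are given as a description without a test, and since lengths differ only the shift between groups is read. The ratio of Jund to Jun averaged -6.03 ± 0.57 (SD, n = 3) in the Control group and -4.52 ± 0.49 in the STREP group, a shift of 1.51. Jund to Junb shifted by 1.53, and Ier5 to Ier2 by 2.32, from -2.86 ± 0.33 to -0.54 ± 0.47. For each of these ratios every STREP animal was above every Control animal.

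The feedback regulators are phosphatases, mRNA decay factors and co-repressors that are induced along with immediate early genes and shut the response down. Of 18 listed, 17 were tested, and the median log2 fold change was 0.13. Of the 17, 1 was called higher and 0 lower, against 1.87% and 1.37% of all tested genes. An unadjusted p under 0.05 (DESeq2) was reached by 1 of the 17, against 12.2%. STREP values were all above Control values in 2, against 9.12%, and all below in 0, against 8.63%. The called gene was Zfp36l2 (ENSRNOG00000005067), which promotes decay of AU-rich mRNAs. It had 632, 439 and 427 normalised counts in Control and 971, 956 and 1147 in STREP animals, without overlap, and a log2 fold change of 1.04 ± 0.22 (DESeq2 SE, adjusted p = 0.000134). In the males alone it was 0.84 and not called. Its paralogue Zfp36l1 (0.40, DESeq2 adjusted p = 0.528) and Spry1, an inhibitor of receptor tyrosine kinase signalling (0.47, DESeq2 adjusted p = 0.679), were not called.

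Upstream regulators are the kinases and transcription factors that act on immediate early gene promoters. Of 27 listed, 25 were in the table and tested, and the median log2 fold change was 0.05. Of the 25, 1 was called higher and 0 lower, against 1.87% and 1.37% of all tested genes. For 13 of the 25 the 95% interval lay inside 1.5-fold, against 37.5% of all tested genes. An unadjusted p under 0.05 (DESeq2) was reached by 6 of the 25, against 12.2%. STREP values were all above Control values in 5, against 9.12%, and all below in 1, against 8.63%. The called gene was Mef2d (ENSRNOG00000031778), a calcium-regulated transcription factor, with 197, 105 and 131 normalised counts in Control and 329, 571 and 265 in STREP animals. Its log2 fold change was 1.43 ± 0.37 (DESeq2 SE, adjusted p = 0.00463), with the highest value in STREP replicate 2. The call was lost with edgeR (adjusted p = 0.0843 with a count filter) and without Control replicate 2 (1.24), Control replicate 3 (1.36) or STREP replicate 2 (1.04). Mapk9, which encodes a JUN kinase, reached 0.54 on the log2 scale (DESeq2 adjusted p = 0.161) and was called without STREP replicate 3 (0.69, adjusted p = 0.0196).

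Measures that could move with immediate early genes are given beside them, and their part in these results was not tested. Of the 10 heat shock genes found, 0 were called. Their summed normalised counts ran from 111919 to 182968 in Control and from 117909 to 177182 in STREP animals, and rested mostly on Hspa8. Hspa1a alone varied more, with 2470, 753 and 2711 normalised counts in Control and 1507, 3438 and 2577 in STREP animals. The sums of 10 glucocorticoid-responsive genes were 27981 to 32533 and 31407 to 42150, and rested mostly on Sgk1 and Tsc22d3. Of the 10, 9 had a log2 fold change above 0 and 1 below, and the median was 0.63. Values were higher without overlap in 4 of the 10, against 9.12% of all tested genes. Per1 is also among the other immediate early genes and Errfi1 among the feedback regulators. Called higher were 2 of the 10, against 1.87% of all tested genes. These were Klf9 (log2 fold change 0.71, DESeq2 adjusted p = 0.033) and Fkbp5, a feedback regulator of the glucocorticoid receptor, which had 76.7, 20.4 and 171 normalised counts in Control and 762, 509.6 and 414 in STREP animals.

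Marker lists of 8 genes each gave the make-up of the tissue. All 8 HC markers were detected, with sums from 56360 to 62573 in Control and from 49586 to 59614 in STREP animals. Of these 8, 7 had a log2 fold change below 0, and the median was -0.31. Values were lower without overlap in 4 of the 8, against 8.63% of all tested genes. Cib2 was called lower, and Myo7a (-0.49) and Lhfpl5 (-0.45) were lower with a DESeq2 adjusted p of 0.0162 and 0.0161 but within the 1.5-fold limit. Gfi1 alone had a positive value and was called higher. Supporting cell sums were 493032 to 620131 and 580321 to 1009172, with 0 of 8 called. Of these 8, 7 had a log2 fold change above 0 and 1 below, and the median was 0.29. Values were higher without overlap in 3 of the 8, against 9.12% of all tested genes. The highest sum was that of STREP replicate 3, in which Otog alone had 729510 normalised counts. Neuron and Schwann cell sums were 199770 to 274115 and 113152 to 223966, with Sox10 and Tubb3 called higher. Macrophage (4183 to 5544 and 5097 to 6204), endothelium and blood (9958 to 15641 and 11348 to 13134) and fibroblast sums (21695 to 28265 and 19770 to 26447) overlapped between groups, with 0 called in each. Sums over 7 genes of other epithelial cells did not overlap, at 45409 to 50820 in Control and 31496 to 38346 in STREP animals, and rested mostly on the ion transport genes Slc12a2 and Atp1b2. None of the 7 was called, but Slc12a2 was lower within the 1.5-fold limit (-0.55, DESeq2 adjusted p = 0.0035), whereas the otoconial gene Oc90 had higher values without overlap (0.83) and did not pass the test (DESeq2 adjusted p = 0.176). No listed marker that was in the table stood at 0 in every library. The part of these markers in the results on the relatives was not tested.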

How the data were processed

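Total RNA from the vestibular epithelium of 3 Control and 3 STREP rats was reverse transcribed from an oligo-dT primer and sequenced. The labels gave the groups. Alignment by the authors used STAR 2.5.3a and the Rnor6.0 build. They estimated reads per gene with RSEM (1.3.0 in the submitters' processing notes) and deposited a table of expected counts without scaling between libraries. All of its values were whole, so rounding changed 0 of them. Such counts share reads among similar or overlapping genes, and the counting of strands is not given in the sources used here. All 6 columns matched a sample, with 0 left over. The 10 genes were matched by symbol, and 1 fit was made over all genes with DESeq2 1.42.0 (R 4.3.3): Wald test for group with no covariate, size factors by median of ratios, independent filtering at 0.05. Adjusted p-values run over the 16250 genes that passed it.

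Libraries held 29333584 to 59906048 counts, with 16325 to 16826 genes detected in each. A floor of 3 counts covers counting error only, since no molecular identifiers mark which reads came from the same molecule. The replicates are separate animals. The fitting procedure was tested on simulated counts.

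The members and the lists were chosen with earlier results of these data known, and no list was tested as a set. Beyond the 10 members, genes were named when called (up to 6 per list), topped up to 3 per list by the size of the change at a mean of at least 100 normalised counts, or when their profile was among the 5 nearest to that of the members. One gene that this rule names is not reported here. Alternatives were edgeR 4.0.16 with and without a count filter, other size factors, a filter of 10 counts in 3 libraries, sex as a covariate, independent filtering switched off, the 4 males alone, the 1.5-fold limit inside the test, libraries thinned to 29333584 counts, and leaving out each animal. The intervals read against 1.5-fold, the test of a change smaller than that, the sex interaction and the ratios between genes were chosen after seeing the data. Promoters are those of RefSeq on GRCr8. They were held for 68.8% of the tested genes, so a check of promoter base composition over all genes was void and is not given.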

Additional observations from a re-analysis of the deposited data

How the results depend on the processing

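The count of members called was 0 in each direction under every alternative run. The number of genes called in the whole table was 527, and 264 with edgeR and a count filter, 295 with edgeR without one, 309 with library totals as size factors and 82 with the 1.5-fold limit inside the Wald test. Leaving out each animal gave 424 to 517. Of the other immediate early genes, 5 were called, against 2 with edgeR with or without the filter and 1 with the limit inside the test, and 3 to 5 with an animal left out. The feedback regulators had 1 call, but 0 in the males alone and 0 with the limit inside the test. The upstream regulators had 1 call, but 0 with edgeR with or without the filter and 0 with the limit inside the test, and 0 to 2 with an animal left out. The number of members with an interval inside 1.5-fold was 5. It was 3 with library totals as size factors, 2 in the males alone and 3 to 4 with an animal left out. The cause of these shifts was not tested.

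The log2 fold change of Fosb turned to 0.17 in the males alone and to 0.017 in thinned libraries, and ran from -1.72 to 0.37 with an animal left out. Junb ran from -0.065 to 0.31 and Nr4a1 from -0.14 to 0.16. None of these passed the test in any setting in which it had an adjusted p. For members, 86 values kept direction and side of the threshold outside the leave-one-out fits. Of the related genes chosen by the naming rule, 18 values lost the call in those settings and 92 kept theirs or stayed uncalled.

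No paired analysis was possible because the titles carry codes and no replicate numbers, and the numbers used here follow the order of deposition. Fosb, Egr3 and Arc are limited by depth: their counts were at most 46 in any library.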
